A study of Brassica rapa subsp. pekinensis with 2 samples.

Results

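The miRNA miR824 of Chinese cabbage (Brassica rapa subsp. pekinensis) was followed in 2 small RNA libraries. Its members were all entries whose name carries exactly the number of miR824 after miR or MIR, with any prefix, arm or edit mark. These were 2 names with 2 distinct sequences in 2 records, of 1220 names, 1152 sequences and 1359 records in the table. The members were bra-miR824 from the 5p arm of the hairpin and bra-MIR824-p3 from its 3p arm. No variant of either sequence, with a changed base or end, was listed, so the comparison by isoform came down to the comparison of the arms.

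The libraries came from the double haploid line ‘FT’. ‘Ant’ was made from anthers taken at several developmental stages, and ‘Mix’ from the roots, stems and leaves of seedlings with 4 true leaves. The sample labels give vernalization at 4 °C for 20 days for the seeds of both, and the methods of the study describe it for ‘Ant’. With 1 library in each group there was no replicate error for any value, and every test below compares these libraries and not the conditions.

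In plants, a miRNA is cut from both arms of a hairpin by a DICER-LIKE enzyme as a short duplex, and usually 1 strand is kept in an ARGONAUTE protein, which it guides to matching transcripts. miR824 is known from the Brassicaceae. In Arabidopsis it directs cleavage of transcripts of AGL16, a MADS-box transcription factor that acts in the divisions of the stomatal lineage and takes part in the repression of flowering together with SVP and FLC. The transcripts of AGL16 were not analysed here.

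The mature sequences are given because the arms are the members that were compared, with the seed (bases 2 to 8) in capitals.
bra-miR824, 5p arm: tAGACCATttgtgagaaggga
bra-MIR824-p3, 3p arm: cCTTCTCAtcgatggtctaga
Both are 21 nt long. The 5p sequence is marked in the table as a known miRBase entry, and the 3p sequence is marked as new, although it lies in a known miRBase precursor. The 5p sequence starts with T (U in the RNA) and the 3p sequence with C. No other of the 1150 sequences had the seed of the 5p arm. The seed of the 3p arm occurred in 1 other sequence, which is shown to give the extent of the match.
PC-5p-26053_73: tCTTCTCActgtcgcaagaag
It was a predicted miRNA on A02 (precursor 9245235 to 9245479) with 1 read in ‘Mix’ and 129 reads in ‘Ant’, and outside the seed it is a different sequence.

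Both arms lie in 1 precursor on A03, plus strand, from 26814851 to 26815482. The 5p sequence spans 26814872 to 26814892 and the 3p sequence 26815438 to 26815458. The table does not name the genome build of its positions. Of the 88 miRNA genes in the RefSeq gene table of Brassica rapa, 78 have the same chromosome, start and end in the deposited table, and MIR824 is the RefSeq gene that overlaps the precursor. Its neighbours there are LOC117132793, a long noncoding RNA gene, and LOC103861486, a protein-coding gene. No other sequence of the table lay in this precursor, and neither arm was listed at a second one. Of the 114 sequences with at least 1000 summed reads, 85 were listed at 1 precursor, 26 at several and 3 at none. The reads of miR824 are whole numbers in both libraries, while 619 records hold fractions. How the fractions arose is not stated in the sources used here.

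The 5p arm fell in ‘Ant’. bra-miR824 had 50699 reads in ‘Mix’ and 22429 in ‘Ant’, which are 51510 and 22076 after the authors' normalization, a single factor per library. Its log2 ratio of ‘Ant’ to ‘Mix’ was -1.22 (95% exact binomial interval -1.25 to -1.20), or 2.33-fold lower in ‘Ant’. Intervals here cover counting error only, as the reads carry no molecular identifiers.

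The 3p arm fell further. bra-MIR824-p3 had 28289 reads in ‘Mix’ and 3724 in ‘Ant’, or 28742 and 3665 normalized reads. Its log2 ratio was -2.97 (95% interval -3.02 to -2.92), or 7.84-fold lower in ‘Ant’.

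**Figure D1:**
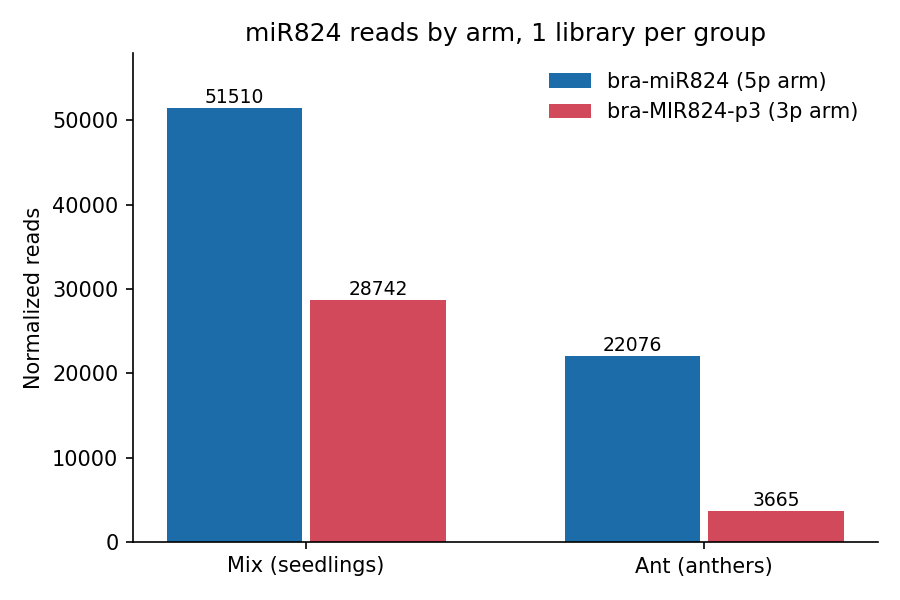
Normalized reads (vertical axis, starting at 0) of the 5p arm (blue) and the 3p arm (red) of miR824 in the ‘Mix’ and ‘Ant’ libraries, 1 library each, without error bars. The 5p bar goes from 51510 in ‘Mix’ to 22076 in ‘Ant’ and the 3p bar from 28742 to 3665.

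Both arms were called lower, that is, a chi-square test and Fisher's exact test (two-sided) of the normalized reads each gave p at most 0.05 and the absolute log2 ratio was above 1. The p-values were too small to be stored as numbers. Over all 1220 names, 20.9% were called lower by the same rule. When a variation between samples was assumed, with a biological coefficient of variation of 0.2, edgeR's exact test gave p = 0.00331 for the 5p arm and p = 1.81e-11 for the 3p arm. At an assumed coefficient of 0.4 the exact test gave p = 0.148 for the 5p arm, which lost its call, and p = 0.000913 for the 3p arm, while 13.8% of all names were called lower. These coefficients are assumptions, since libraries without replicates cannot give one. In whole tissues, a smaller part of cells that make miR824 and less miR824 per cell cannot be told apart.

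As a share of all miRNA reads, each distinct sequence counted once (1393755 reads in ‘Mix’ and 1346716 in ‘Ant’), bra-miR824 took 3.64% in ‘Mix’ (95% Wilson interval 3.61 to 3.67) and 1.67% in ‘Ant’ (1.64 to 1.69). bra-MIR824-p3 took 2.03% in ‘Mix’ (2.01 to 2.05) and 0.277% in ‘Ant’ (0.268 to 0.286). Together the arms held 5.67% of the miRNA reads of ‘Mix’ (5.63 to 5.71) and 1.94% of those of ‘Ant’ (1.92 to 1.97). The intervals of the libraries do not overlap for either arm or for the sum.

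In the order of reads, the 5p arm was number 5 in ‘Mix’ and number 11 in ‘Ant’. In ‘Mix’ it stood below bra-miR1885b, a Brassica miRNA (109369 reads), and bna-miR166f, of the family that targets HD-ZIP III transcripts (84451 reads), and above aly-miR159a-3p, of the family that targets GAMYB-like transcripts (46024 reads), and bra-MIR5719-p5_2ss2AT19AC (41816 reads). All of these differed from it beyond counting error. In ‘Ant’ the next above was bna-miR171f_1ss14CT with 22794 reads, which did not differ from it beyond counting error (exact binomial p = 0.0870, 0.0994 after Benjamini-Hochberg adjustment over 16 comparisons with neighbours). The next below was bra-miR396-5p with 21772 reads (exact binomial p = 0.00181, adjusted 0.00241). Second above and second below were cas-MIR408-p5 with 34695 reads and bra-miR5654a with 20455 reads. The places given here and below, and the shares, take the listed reads of each sequence once. Whether a sequence listed at several precursors has all its reads in that count is not known. Among these is aly-miR159a-3p, next below the 5p arm in ‘Mix’.

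The 3p arm was number 10 in ‘Mix’ and number 46 in ‘Ant’. In ‘Mix’ it lay between cas-miR408, of the family that targets transcripts of copper proteins (34178 reads), and ath-miR166a-3p (26623 reads), with bra-MIR5719-p3_1ss21AT (35820 reads) and bra-miR168b-5p_1ss21CA (25177 reads) as the next ones outward. In ‘Ant’ its place was less sharp. It did not differ beyond counting error from gma-miR171c-3p_2ss19AT21AT above it, with 3871 reads (exact binomial p = 0.0939, adjusted 0.100), nor from bra-miR5711 below it, with 3594 reads (exact binomial p = 0.132, adjusted 0.132). It differed from the second above, ath-miR319c_L+1R-1 with 3973 reads, and from the second below, peu-MIR2916-p3_2ss11CT17GC with 3431 reads.

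**Figure D2:**
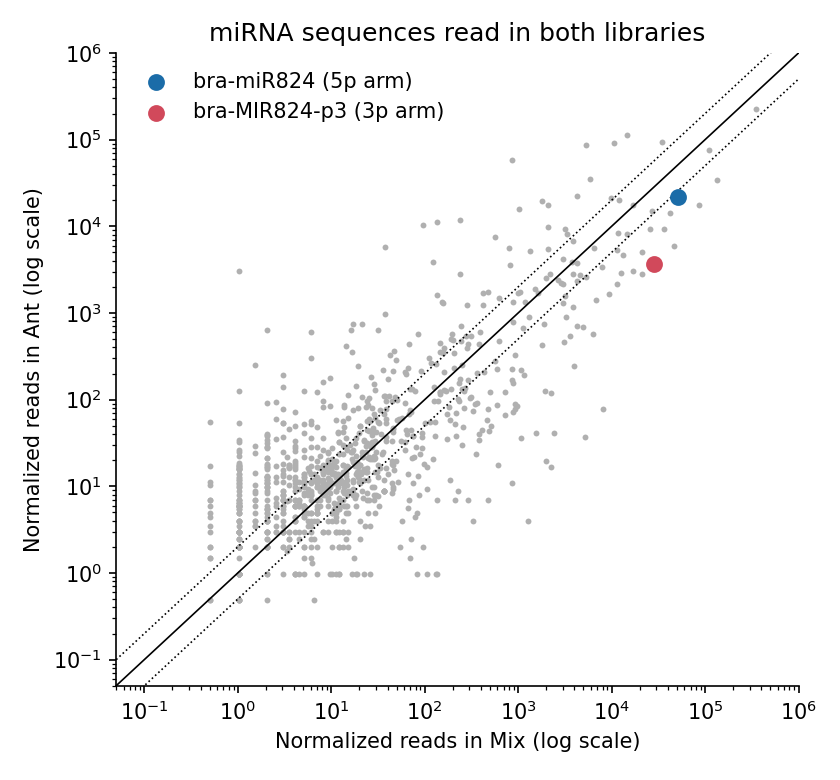
Normalized reads in ‘Mix’ (horizontal) and ‘Ant’ (vertical), both on log scales, for the 965 of 1152 sequences with reads in both libraries, with miR824 in colour; the solid line marks equal values and the dotted lines 2-fold differences. The 5p arm lies just below the lower dotted line and the 3p arm well below it, both at the upper right among the most read sequences.

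The difference between the arms changed the makeup of the locus. The summed reads went from 78988 in ‘Mix’ to 26153 in ‘Ant’, with a log2 ratio of -1.64 after normalization (95% interval -1.66 to -1.62). The 3p arm held 35.8% of them in ‘Mix’ (95% Wilson interval 35.5 to 36.1) and 14.2% in ‘Ant’ (13.8 to 14.7). The 5p to 3p ratio was 1.79 in ‘Mix’ and 6.02 in ‘Ant’. The odds of a 3p read were 3.36 times higher in ‘Mix’ (95% interval 3.24 to 3.49), a comparison within each library that no scaling between libraries changes. On the log2 scale the 3p arm fell by 1.75 more than the 5p arm. Of the 54511 normalized reads by which ‘Mix’ exceeded ‘Ant’, 46.0% were 3p reads. The 5p arm remained the more read strand in both libraries.

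The fold of the precursor is given because both arms are its strands. In the deposited fold, 17 bases of each arm pair with the other arm, 1 of them as a G:U wobble. In the sequences below, capitals mark the bases without a partner in the other arm.
bra-miR824 in the duplex: tagaccatTTgtgagaaggGA
bra-MIR824-p3 in the duplex: ccttctcatCGatggtctaGA
Each arm has 2 facing unpaired bases in the middle, at 9 and 10 of the 5p sequence and at 10 and 11 of the 3p sequence, and 2 bases at its 3′ end that overhang the other arm. An overhang of this kind is known for DICER-LIKE products. RNAduplex, run on the mature sequences alone, gave 18 pairs and -28.1 kcal/mol.

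The precursor of miR824 was the longest of the 739 precursors in the table, with 632 nt against a median of 161 nt for the others. The next longest, that of bra-MIR5713-p5, had 446 nt. Between the arms of miR824 lay 545 nt, compared with a median of 46 nt and at most 348 nt in the 301 other precursors with 2 listed arms. Its folding energy was -193.8 kcal/mol (median of the others -70.0), and 6 precursors had a lower one. Per 100 nt the energy was -30.7 kcal/mol, against a median of -43.9, and 54 precursors folded more weakly by this measure. The deposited folding score, which relates energy to length and GC content, was 0.80 with 22 precursors below it and a median of 1.30. The GC content was 37.8% (median 34.7%), and 57.6% of the bases were paired.

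**Figure D3:**
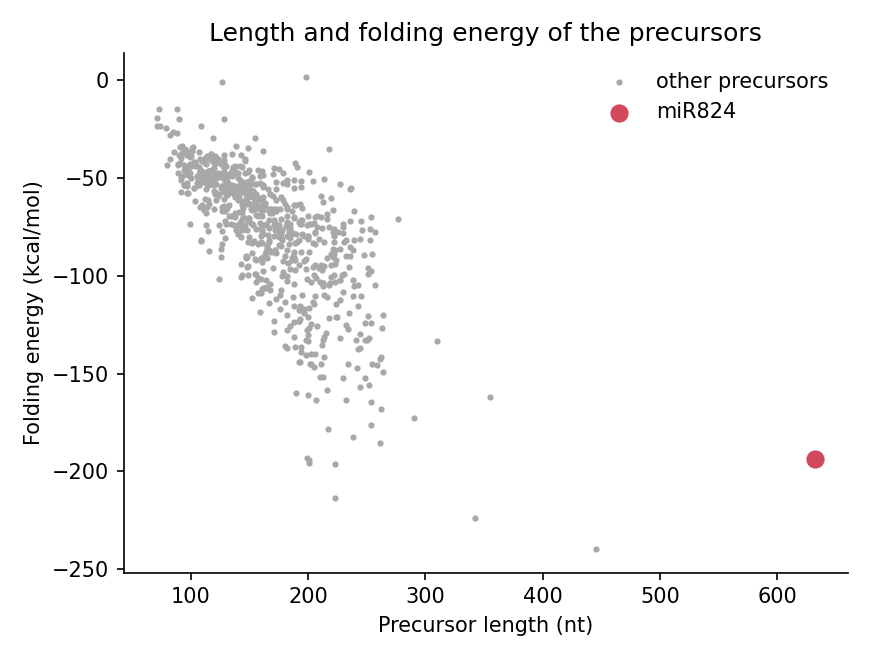
Length in nt (horizontal) and deposited folding energy in kcal/mol (vertical) of 739 precursors, 1 point each, with miR824 in red. miR824 lies alone at 632 nt, to the right of all others, with an energy of -193.8 kcal/mol.

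**Figure D4:**
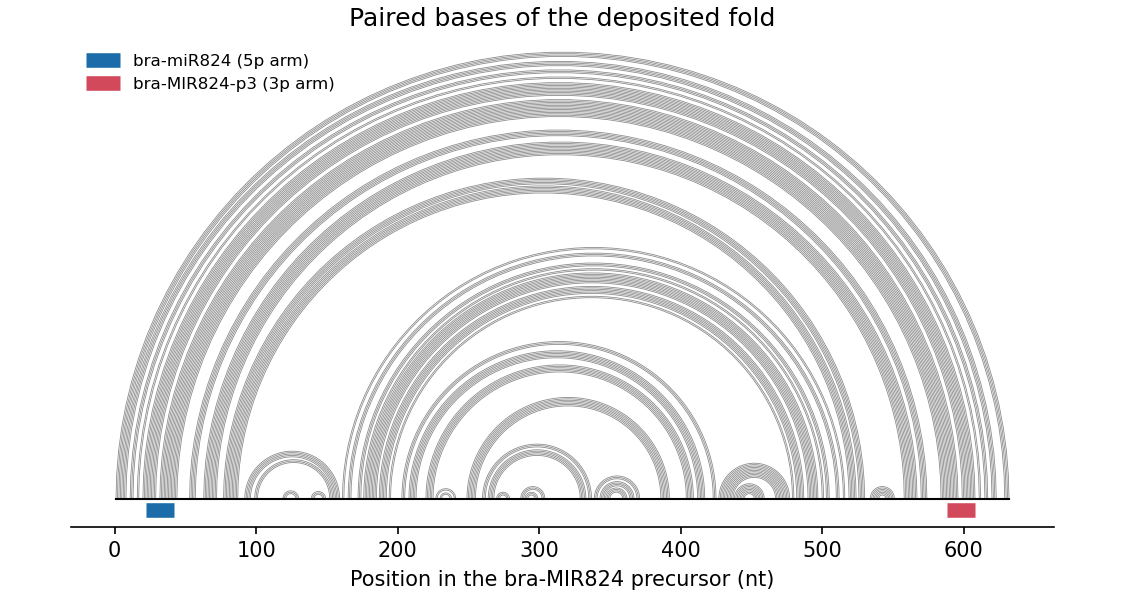
Deposited fold of the miR824 precursor, with position in nt on the horizontal axis and each arc joining 2 paired bases; blue and red blocks mark the 5p arm (bases 22 to 42) and the 3p arm (bases 588 to 608). The arms face each other near the base of the outermost stem, and the bases between them form several smaller stems.

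Other precursors were used to see where the unequal change of the arms stood. With at least 100 summed reads for each arm, 96 other precursors had both arms, where precursors with the same pair of arm sequences were counted once. Of these, 26 were below -1 on the log2 scale in both arms, as miR824 was, while 17 were above 1 in both. The 3p arm had the lower ratio in 47 of the 96, and the median difference of 3p minus 5p was 0.07. A difference lower than the -1.75 of miR824 was found in 18 of the 96, and an absolute difference larger than 1.75 in 40, with a median absolute difference of 1.45. A sequence that is listed at several precursors can still enter more than 1 of these pairs. Among the 48 pairs whose arms were each listed at 1 precursor, 5 had a lower difference and 14 a larger absolute one. The less read arm took a larger share than in miR824 in 21 of the 96 in ‘Mix’ and in 54 in ‘Ant’, where the medians were 16.9% and 18.6%. The 35.8% share of the 3p arm in ‘Mix’ was thus above the median, and the 14.2% in ‘Ant’ below it.

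**Figure D5:**
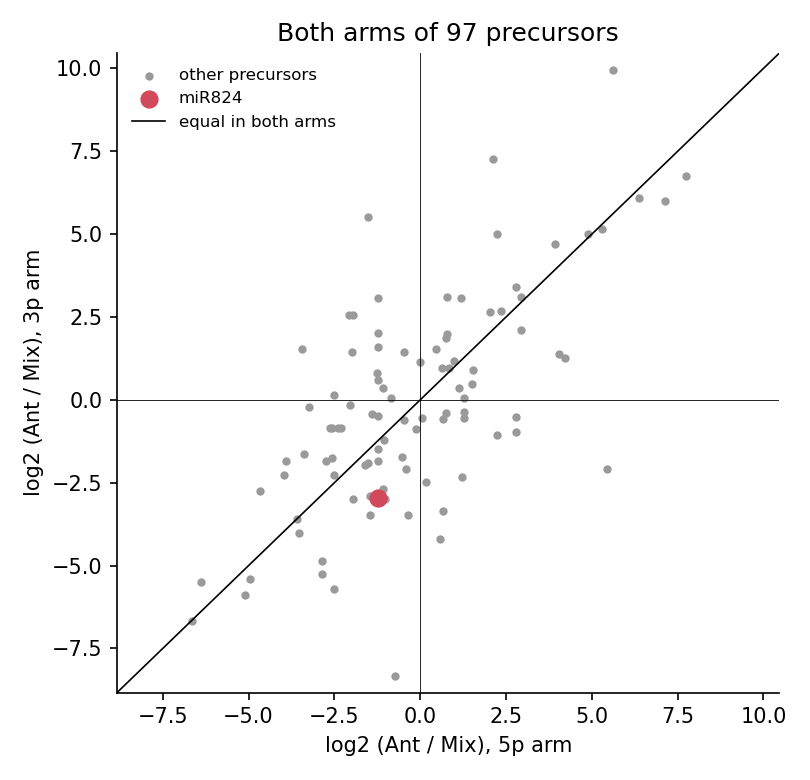
Log2 ratio of ‘Ant’ to ‘Mix’ for the 5p arm (horizontal) and the 3p arm (vertical) of 97 precursors, 1 point each, with miR824 in red and a line for equal ratios. Precursors with the same pair of arm sequences are 1 point. miR824 lies at -1.22 and -2.97, below the line, and points are spread widely on both sides of it.

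The precursors nearest to miR824 by both ratios were those of miR159a, miR168a and miR164. In bra-miR168a, of the family that targets AGO1 transcripts, the 5p arm went from 25177 reads in ‘Mix’ to 9521 in ‘Ant’ and the 3p arm from 20821 to 2887, log2 ratios of -1.45 and -2.90. Its listed 3p share went from 45.3% to 23.3%. The same 5p reads are also listed for a miR168b precursor, whose 3p arm went from 6214 to 584 reads. These shares are thus not those of 1 locus, unlike those of miR824. In the miR159a precursor the 5p arm (ath-MIR159a-p5) went from 558 to 282 reads and the 3p arm from 46024 to 6043, log2 ratios of -1.03 and -2.97. There the 3p arm is the main one, with 98.8% and 95.5% of the listed reads. Its 3p reads are also listed for the precursor of bra-MIR159a-p5, so these are not shares of 1 locus either. In miR164, of the family that targets CUC-type NAC transcripts, ath-miR164a_R+1 went from 260 to 127 reads and ath-miR164b-3p_1ss16AC from 3496 to 556. Other pairs of the miR164 family lay farther off. For bra-miR164b-5p with bra-miR164b-3p the log2 ratios were -3.59 and -3.58, and for bra-miR164a with bra-miR164e-3p -1.52 and -1.90. The pair of bra-miR164a with bra-MIR164a-p3 went apart, at -1.52 and 5.53, with only 3 reads of that 3p arm in ‘Mix’ and 143 in ‘Ant’. The distances from miR824 in the plane of both ratios were 0.19 for miR159a, 0.24 for miR168a and 0.31 for the pair of ath-miR164a_R+1.

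Taken singly, sequences with at least 1000 summed reads had ratios close to that of each arm. Of the 112 other such sequences, 47 were called lower and 35 higher, with a median log2 ratio of -0.48. A lower ratio than that of the 5p arm was found in 43 of them, and a lower ratio than that of the 3p arm in 15. Nearest to the 5p arm were aly-miR156a-5p (-1.22), which belongs to the family that targets SPL transcripts, peu-MIR2916-p3_2ss11CT17GC (-1.21), ath-miR8175_L-2 (-1.31), bra-MIR1140-p5 (-1.09) and peu-MIR2916-p5_2ss15TG21AG (-1.04). Nearest to the 3p arm were aly-miR159a-3p (-2.97), bra-miR168a-3p (-2.90), bna-miR160a (-2.86), of the family that targets ARF transcripts, ath-miR319a (-2.74), of the family that targets TCP transcripts, and ath-miR164b-3p_1ss16AC (-2.70). Likeness here is the absolute difference of log2 ratios over 2 libraries.

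Other miRNAs with a known role in the timing of flowering were set beside miR824, taken by number: miR156, miR157, miR159, miR172, miR319, miR390 and miR399. They had 95 distinct sequences, of which 32 were called higher in ‘Ant’, 21 lower and 42 neither. Their median log2 ratio was -0.05 with counts under 3 set to 3 reads. A sequence with under 3 reads in both libraries takes this same value, and only 43 of the 95 had at least 10 reads in both. Over all 1152 sequences 27.3% were called higher and 19.3% lower. The median over all was -0.01 with the same floor, and 422 had at least 10 reads in both libraries. The families differed in direction. The summed normalized reads of miR159 went from 48105 in ‘Mix’ to 6360 in ‘Ant’, and all 5 of its sequences were called lower. miR156 and miR157 both target SPL transcripts and share 1 sequence, named bna-miR156b and ath-miR157a-5p, which had 3355 and 8186 normalized reads and was called higher. Together, with that sequence counted once, they went from 14838 to 48418, with 10 of 28 sequences higher and 6 lower. The family sums here hold both arms. The 3p sequence bra-miR156a-3p went from 2070 to 17996 reads. Of the 5p sequences, aly-miR156a-5p went from 2958 to 1308 reads and was called lower, and ath-miR156h_L+1 went from 234 to 11884 and was called higher. For miR399, which acts in the phosphate response and is called a flowering regulator in Arabidopsis, the sums were 128 and 747, and 9 of 15 sequences were called higher. For miR172, which targets AP2-like transcripts, they were 6675 and 7495, with 12 of 29 higher and 5 lower. These near sums join opposite changes of well-read sequences. ath-miR172a went from 3162 to 904 reads and bra-miR172d-3p from 1782 to 432, while cas-MIR172d-p3 went from 120 to 3983. miR319 went from 7327 to 4769, with 1 of 10 sequences higher and 3 lower. miR390, which triggers TAS3 siRNAs, went from 6005 to 4084 with 2 of 8 lower.

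The most read sequences of that list were aly-miR159a-3p, bra-miR156a-3p and ath-miR156h_L+1. bra-miR156a-3p had 2070 reads in ‘Mix’ and 17996 in ‘Ant’, a log2 ratio of 3.07, and ath-miR156h_L+1 had 234 and 11884 reads, a log2 ratio of 5.62. By the listed reads, no sequence of the list was read more than bra-miR824 in either library. The nearest to it in ‘Mix’ was aly-miR159a-3p with 46024 reads. That sequence is listed at several precursors, and its place depends on the counting rule for shared reads, which is not known.

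A second list held miRNAs whose numbers were given in Arabidopsis, miR771 to miR783 and miR822 to miR870 without miR824. It had 18 distinct sequences of 8 numbers, of which 9 were called higher in ‘Ant’, 3 lower and 6 neither, beside the 27.3% and 19.3% over all sequences. The median log2 ratio was 0.98 with counts under 3 set to 3 reads, and 9 of the 18 had at least 10 reads in both libraries. Lower were both sequences of miR858, which targets MYB transcripts in Arabidopsis, with summed normalized reads of 3269 in ‘Mix’ and 1578 in ‘Ant’, and 1 of the 4 sequences of miR827, with sums of 346 and 148. All 3 sequences of miR845, a pollen miRNA that matches retrotransposons in Arabidopsis, were higher, with sums of 96.5 and 11037. Nearly all of the ‘Ant’ sum came from ath-miR845a (10380) and aly-MIR845a-p5_1ss17GA (651), so the remaining call rests on few reads.

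ath-miR845a had 95 reads in ‘Mix’ and 10546 in ‘Ant’ (log2 ratio 6.75), and cas-miR858 had 3153 and 1589 (log2 ratio -1.03). aly-MIR845a-p5_1ss17GA had 0 and 661 reads, at least 213-fold higher in ‘Ant’ when the 0 is taken as 3 reads. miR824 was by far the most read number of this group. It held 95.1% of the reads of the list and miR824 together in ‘Mix’, where the others summed to 4109 reads, and 65.3% in ‘Ant’, where the others summed to 13907.

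The first base of a small RNA is known to affect the choice of ARGONAUTE protein in Arabidopsis, so the arms were placed among 21-nt sequences with the same first base. Of the 61 sequences of 21 nt that start with C, bra-MIR824-p3 was the most read in ‘Mix’ with 43.5% of their reads. In ‘Ant’ it came second with 15.5%, after ath-miR845a. All C-starting sequences took 5.82% of the 21-nt miRNA reads in ‘Mix’ and 2.32% in ‘Ant’. Among the 246 that start with T, bra-miR824 was number 3 in ‘Mix’ with 6.55% of the reads and number 6 in ‘Ant’ with 3.29%. Of the 212 sequences marked as new that lie in precursors named after known miRNAs, bra-MIR824-p3 was number 4 in ‘Mix’ and number 12 in ‘Ant’.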

How the data were processed

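Small RNA was sequenced by the authors from 1 library each of ‘Ant’ and ‘Mix’. They trimmed adapters, removed common RNA families and mapped the rest to miRBase and the genome. The reads they deposited per miRNA are estimated counts, some with fractions. The deposited normalized signal is these reads times 1 factor per library (1.02 for ‘Mix’, 0.984 for ‘Ant’). Per precursor the authors deposited GC percent, folding energy and a folding score. The counting rule for shared reads is not given in the sources used here. The methods name a genome build for the longer RNA libraries and none for the positions in the miRNA table. No column of another sample was present (0).

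Each name was tested on rounded normalized values against totals over names, by a chi-square test and Fisher's exact test; a name was called where both gave p at most 0.05 and its log2 ratio was beyond 1 in either direction. The edgeR exact test used rounded reads at assumed coefficients of variation. Lists were counted over distinct sequences. Counts under 3 were set to 3 reads for the bound, for the medians of the lists and for the ratios of arm pairs. Arms were paired by precursor position, and in the comparison of arm ratios precursors with the same pair of arm sequences were counted once. Named were all miR824 entries, the 2 sequences above and below each arm in each library, per arm the 5 sequences with the nearest ratio among those with at least 1000 summed reads, the 3 precursors with the nearest pair of ratios, and the 3 most read sequences of each list. PC-5p-26053_73 (shared seed), ath-miR157a-5p (shared with miR156), bra-MIR5713-p5 (next longest precursor) and the families were named as results of their counts, after their values were seen. The miR172 sequences and the other miR164 pairs were also named after their values were seen. The members and lists were chosen with earlier results of these data known. Alternatives were other scalings, pseudocounts, tests, thresholds and read minimums.

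Python 3.11.15, scipy 1.17.1, RNAduplex 2.7.2, R 4.3.3, edgeR 4.0.16 and DESeq2 1.42.0 (size factors only) were used. The mRNA, lncRNA and circRNA libraries were not used here.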

Additional observations from a re-analysis of the deposited data

How the results depend on the processing

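No paired analysis was possible because each group has 1 library. For the same reason no library could be left out. The 3p arm was called lower in all 15 alternatives, with log2 ratios between -3.19 and -2.88, and the 5p arm in 13 of 15, between -1.44 and -1.13. The 5p arm, at -1.22, was not called by edgeR's exact test at a coefficient of 0.4 nor with a log2 threshold of 2, which excludes -1.22 by definition. Several alternatives could hardly change a call. Either test alone only loosens the rule, and pseudocounts and read minimums matter little at the read numbers of these arms. The counts of alternatives are therefore no measure of certainty. The summed log2 ratio was -1.55 with totals over distinct sequences, -1.72 with valid reads, -1.69 with TMM factors, -1.86 with DESeq2 size factors and -1.76 with totals that leave out the 3 most read sequences of each library. These scalings shift every log2 ratio alike, and the largest shift was -0.22 for DESeq2 size factors. The odds ratio of the arms was 3.36 from normalized reads too.

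With totals over names, which count a sequence under several names more than once, the shares were 3.06% in ‘Mix’ and 1.34% in ‘Ant’ for the 5p arm and 1.71% and 0.222% for the 3p arm. Of 1220 names, 168 were called lower by edgeR's exact test at 0.4, against 255 as reported. When each library had to hold 10 reads or more, 150 of 480 names were called lower (31.2%). Precursors with a lower difference of the arms than miR824 numbered 43 of 277 at a minimum of 10 reads, 6 of 38 at 1000, and 5 of 48 where each arm was listed at 1 precursor, an alternative chosen after seeing the data. The flowering-time list had 33 of 118 lower calls by names (28%), beside 20.9% of all names. With 10 reads or more required in each library, 14 of its 43 remaining sequences were called higher (32.6%) and 4 of the 9 in the second list (44.4%), beside 25.8% of the 422 sequences in all. Called lower were 15 of the 43 (34.9%) and 3 of the 9 (33.3%), beside 28.2% of the 422. By names with the same minimum, the flowering-time list had 18 of 62 higher (29%) and 27 lower (43.5%), beside 25.6% and 31.2% of all 480 names. The larger number of higher calls in that list was thus not kept at this minimum.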
